A study of Mus musculus with 12 samples.

Results

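The 77 mitochondrial ribosomal protein genes of the deposited table, chosen by their symbols (Mrpl or Mrps, a number and at most a letter from a to c), were followed through mouse preimplantation development. They were 77 of 43472 genes: 48 Mrpl genes, named for the large subunit of the mitochondrial ribosome, and 29 Mrps genes, named for the small subunit. The RNA came from embryos of CD1 mice, an outbred stock, and was sequenced from the morula, the early blastocyst and the late blastocyst. All embryos, controls included, had received siRNA and GFP mRNA (a marker of injection) as zygotes, so the series holds no uninjected embryos. The siRNA was either a negative control or directed against Tdgf1, which encodes a co-receptor of Nodal signalling. Each of the 6 combinations of stage and siRNA had 2 libraries, numbered 1 and 2 in the labels, and a stage therefore had 4. The labels give neither the number of embryos in a library nor whether libraries 1 and 2 came from separate batches of embryos, so a p-value reflects spread among libraries alone, which may be technical. The libraries held 10524640 to 13770264 reads assigned to genes, and levels are given as CPM, the reads of a gene per 1000000 assigned reads.

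The mitochondrial ribosome translates the few messenger RNAs encoded by mitochondrial DNA, which specify core subunits of the respiratory chain and of ATP synthase. Its RNAs are mitochondrial, but all of its proteins are encoded in the nucleus, made by cytosolic ribosomes and imported, and they outnumber those of the bacterial ribosome because many subunits are specific to mitochondria. In the mouse embryo, blastocyst formation is a time of rising oxygen use and of structural maturation of mitochondria. Members of the name family are not all ribosomal: the product of Mrps36 has been reassigned to the 2-oxoglutarate dehydrogenase complex, and the product of Mrps18a lies in the large subunit despite its name.

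Of the 77 genes, 76 had a mean of at least 3.582 CPM, the level needed to enter the tests. A tested gene had 237 to 8453 reads in a library, which gives a counting error of 6.5% at the fewest reads and 1.09% at the most. The median CV of these genes between libraries of a group was 4.89% to 10.2%, so for the genes with fewest reads counting error was not small beside it. The exception was Mrpl53, a large-subunit gene on mouse chromosome 6 (GRCm38, chr6:83109040-83109939, plus strand), which was listed at 0 in all 12 libraries. All 695 of its exon bases in GENCODE M21 also belonged to another gene of the same strand, Gm42688, and the part of that overlap in the zeros was not tested. The genes lay on 17 chromosomes, and the exons of 25 overlapped those of another gene, 20 of them on the opposite strand. The sources used here do not say whether reads were counted by strand, so reads of such partners cannot be told apart. The overlap covered over 50% of exon bases in 3 genes: Mrpl53, Mrps18b (59.1%, by the antisense gene Gm16279) and Mrps25 (58.2%, by Nr2c2).

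Per kilobase of exon, the levels of the tested genes covered a wide range. Mrpl22, whose product lines the tunnel through which the new peptide leaves, had the highest mean at 423 CPM per kilobase. Next came Mrps18b at 419.6, Mrpl42 at 360.5, Mrpl18 at 322 and Mrpl33 at 281 CPM per kilobase. The lowest means were those of Mrps25 at 13.2, Mrpl48 at 14.6, Mrpl3 at 17.2, Mrps5 at 18.0 and Mrpl19 at 19.9 CPM per kilobase. Those 5 genes had annotated exon lengths of 4481 to 6073 bases, against a median of 1363 bases over the family, and which of the annotated exons the embryos used was not tested.

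Summed over the family, the level was 10114 ± 195 CPM (SD, n = 4) in morulae, 11377 ± 674 CPM in early blastocysts and 10461 ± 165 CPM in late blastocysts. The family thus took 1.01%, 1.14% and 1.05% of the reads at the 3 stages. The morula libraries ranged from 9914 to 10367 CPM and the early blastocyst libraries from 10589.8 to 12127 CPM, so these stages did not overlap. The late blastocyst libraries, at 10251 to 10632 CPM, overlapped both. The Mrpl genes summed to 6424 ± 189, 7362 ± 421 and 6857 ± 137 CPM, and the Mrps genes to 3689.8 ± 73.7, 4015 ± 259 and 3603 ± 76.2 CPM, at morula, early and late blastocyst (SD, n = 4 each). Since these are sums over whole embryos, fewer cells of a type and less RNA per cell cannot be told apart here or in any result that follows.

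**Figure D1:**
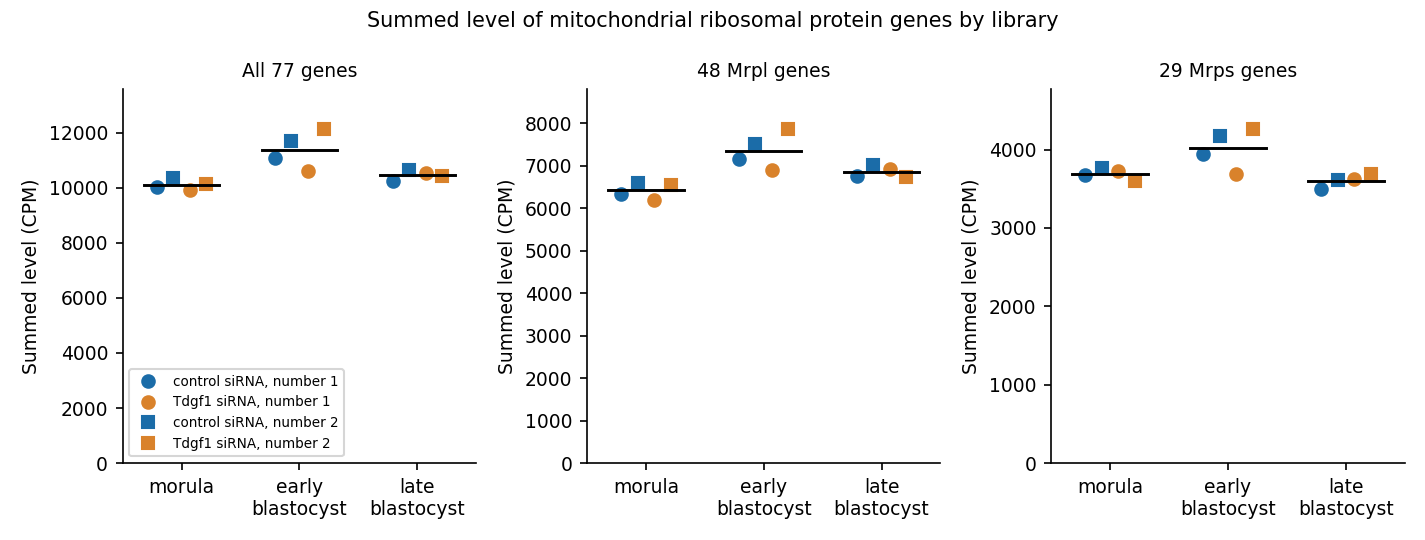
Summed level in CPM (vertical axis, from 0) of all 77 genes, the 48 Mrpl genes and the 29 Mrps genes in each of the 12 libraries, by stage. Symbols mark siRNA and library number, and lines mark the mean of 4 libraries. Early blastocyst libraries numbered 2 stand highest in all 3 panels.

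The largest span, from morula to late blastocyst, moved single genes in both directions while the family's centre stayed near that of all genes. By limma with Benjamini-Hochberg adjustment over 10751 genes, 22 of the 76 tested genes (28.9%) were higher at late blastocyst and 11 (14.5%) were lower, beside 36.6% and 24.3% of all genes tested. The 4 libraries of each stage did not overlap for 23 genes that were higher and 12 that were lower at late blastocyst, beside 35.3% and 23.5% of all genes. Among the Mrpl genes 15 rose and 4 fell, and among the Mrps genes 7 rose and 7 fell. The changes were small: 3 genes (3.95%) changed by more than 1 on the log2 scale, against 23.2% of all genes tested and 21.1% of the 4313 genes within the family's range of mean levels. The median absolute change was 0.23 in the family and 0.52 over all genes, both on the log2(CPM + 3.582) scale. Every log2 value here uses that scale except those by edgeR and DESeq2, which are log2 fold changes fitted to the reads. The split depended on the method: edgeR on the whole reads recovered from the file called 14 higher and 17 lower, beside 30.9% and 29.6% of all genes. DESeq2 called 14 and 18, beside 31.0% and 30.7%. Those tools change the scaling and the test at once, while quantile normalization before limma gave 20 higher and 13 lower, beside 28.8% and 33.0%. The median change of all genes was 0.13 in the deposited values but -0.07 after quantile normalization, 0.0 by edgeR and -0.01 by DESeq2. The family's own median was 0.05, 0.01, -0.09 and -0.11 in the same order, or -0.08, 0.08, -0.1 and -0.1 relative to all genes, so neither sign held throughout. The count of lower genes also moved when single libraries were left out. It fell from 11 to 5 without late blastocyst control library 1. Without late blastocyst Tdgf1 siRNA library 2 it was 7, and without morula Tdgf1 siRNA library 1 also 7. The shares of all genes called lower in those fits are not given here, so the losses are not shown to be particular to the family.

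Mrps36 had the largest rise. It had 22.1 and 22.7 CPM in the control libraries and 22.9 and 25.9 CPM in the Tdgf1 siRNA libraries at morula, 49.3, 36.7, 49.8 and 36.5 CPM in the same order at early blastocyst, and 75.8, 96.1, 70.7 and 73.2 CPM at late blastocyst. No library of one stage overlapped those of another. The change from morula to late blastocyst was 1.61 ± 0.15 (log2, SE; limma adjusted p = 7.82e-07), and the ratio of mean CPM was 3.37. Mrps36 lies on chromosome 13 (chr13:100735955-100744659, minus strand), and its named pseudogenes Mrps36-ps1 and Mrps36-ps2 had at most 0.154 CPM.

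Mrpl23, whose product sits at the exit of the peptide tunnel, rose in the same stepwise way. Its control and Tdgf1 siRNA libraries had 54.5, 51.2, 48.7 and 52.6 CPM at morula, 82.3, 76.4, 70.0 and 89.4 CPM at early blastocyst, then 115, 128, 104 and 115 CPM. The 3 stages did not overlap. The change over the whole span was 1.10 ± 0.12 (adjusted p = 2.71e-06), and the pseudogene Mrpl23-ps1 stood at 5.79 to 16.7 CPM over the 12 libraries. These were the only 2 of the 76 genes that rose at both steps in the deposited values, beside 7.97% of all genes tested. After quantile normalization Mrpl18 and Mrpl42 joined them.

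The next rises were those of Mrps35, Mrpl42, Mrps14 and Mrps16. Mrps35, which encodes a mitochondria-specific protein of the small subunit, went from 64.5 ± 6.41 CPM (SD, n = 4) at morula to 107 ± 11.4 CPM at late blastocyst, a change of 0.70 ± 0.11 (adjusted p = 9.28e-05). Mrpl42, which encodes another mitochondria-specific protein, went from 187 ± 21.3 to 301 ± 23.9 CPM (0.68 ± 0.11, adjusted p = 0.000152). Mrps14, a small-subunit gene with a bacterial counterpart, went from 169 ± 14.5 to 267 ± 12.9 CPM (0.65 ± 0.11, adjusted p = 0.000178). Mrps16, likewise of bacterial ancestry, went from 62.5 ± 10.1 to 98.3 ± 7.08 CPM (0.63 ± 0.11, adjusted p = 0.000307). In each of the 4 genes all late blastocyst libraries stood above all morula libraries.

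Mrpl22 had the largest fall, and it began from the highest level per kilobase. It had 349.6 and 454 CPM in the control libraries and 404 and 393 CPM in the Tdgf1 siRNA libraries at morula, then 293, 411, 275 and 423 CPM at early blastocyst. At late blastocyst the 4 libraries had 154, 166, 184 and 156 CPM, below every library of the earlier stages. The change from morula was -1.26 ± 0.15 (adjusted p = 8.46e-06), and the mean CPM was 0.412 of that at morula. Mrpl22 lies on chromosome 11 (chr11:58171661-58179565, plus strand), and no other annotated gene overlaps its exons.

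The other large falls were in both subunits. Mrps18b fell by 0.68 on the log2 scale (SE 0.13, adjusted p = 0.000628), from 510.5 ± 42.1 CPM at morula to 317 ± 17.7 CPM at late blastocyst, with the antisense overlap named above. Mrpl34 fell by 0.51 (SE 0.14, adjusted p = 0.00616), from 133 ± 16.4 to 92.2 ± 10.9 CPM. Mrps34, which encodes a mitochondria-specific small-subunit protein mutated in a form of Leigh syndrome, fell by 0.49 (SE 0.13, adjusted p = 0.00453), from 151 ± 13.5 to 106 ± 8.91 CPM. The late blastocyst libraries of these 3 genes were all below their morula libraries. Mrps6 fell by 0.50 (SE 0.17, adjusted p = 0.0223), from 112 ± 8.21 to 78.7 ± 14.0 CPM, and 36.1% of its exon bases were shared with Gm49711 on the same strand. The Mrps6 call was lost with same-numbered libraries averaged (adjusted p = 0.0615), with no filter on low values, in the Tdgf1 siRNA arm alone, without all libraries numbered 2 and without any one of 4 libraries: control 2 and Tdgf1 siRNA 2 at morula, and control 1 and Tdgf1 siRNA 2 at late blastocyst.

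The 3 Mrps18 paralogs, which descend from the same bacterial gene, did not share a course. Mrps18a stood at 206, 214, 222 and 207 CPM at morula and at 156, 149, 159 and 162 CPM at late blastocyst (control 1 and 2, Tdgf1 siRNA 1 and 2). It fell by 0.43 (SE 0.10, adjusted p = 0.00234), and Mrps18b fell as given above. Mrps18c, the paralog placed like the bacterial protein, had 109.9 ± 6.79 CPM at morula and 117 ± 9.26 CPM at late blastocyst, a difference of 0.08 ± 0.11 (adjusted p = 0.511). Whether the paralogs differed in their changes was not tested.

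The genes of the ribosomal stalk, which recruits translation factors, were followed as a further group. Mrpl12, which encodes the stalk protein itself, had 257, 262, 263 and 279.8 CPM at morula, 292, 288, 298 and 303 CPM at early blastocyst and 332, 321, 334 and 339.9 CPM at late blastocyst. Its 3 stages did not overlap, and it rose by 0.32 ± 0.09 over the whole span (adjusted p = 0.00636). That call was lost by edgeR (0.18, adjusted p = 0.133), by DESeq2 (0.17, adjusted p = 0.152) and in each arm alone. Mrpl10 and Mrpl11, whose products form the base of the stalk, changed by 0.11 ± 0.11 and 0.13 ± 0.10 over the same span (adjusted p = 0.396 and 0.31). Mrpl11 was higher at early blastocyst than at morula, by 0.31 ± 0.10 (adjusted p = 0.0348), a call that was lost with same-numbered libraries averaged (adjusted p = 0.135), by edgeR and DESeq2 and after quantile normalization.

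**Figure D2:**
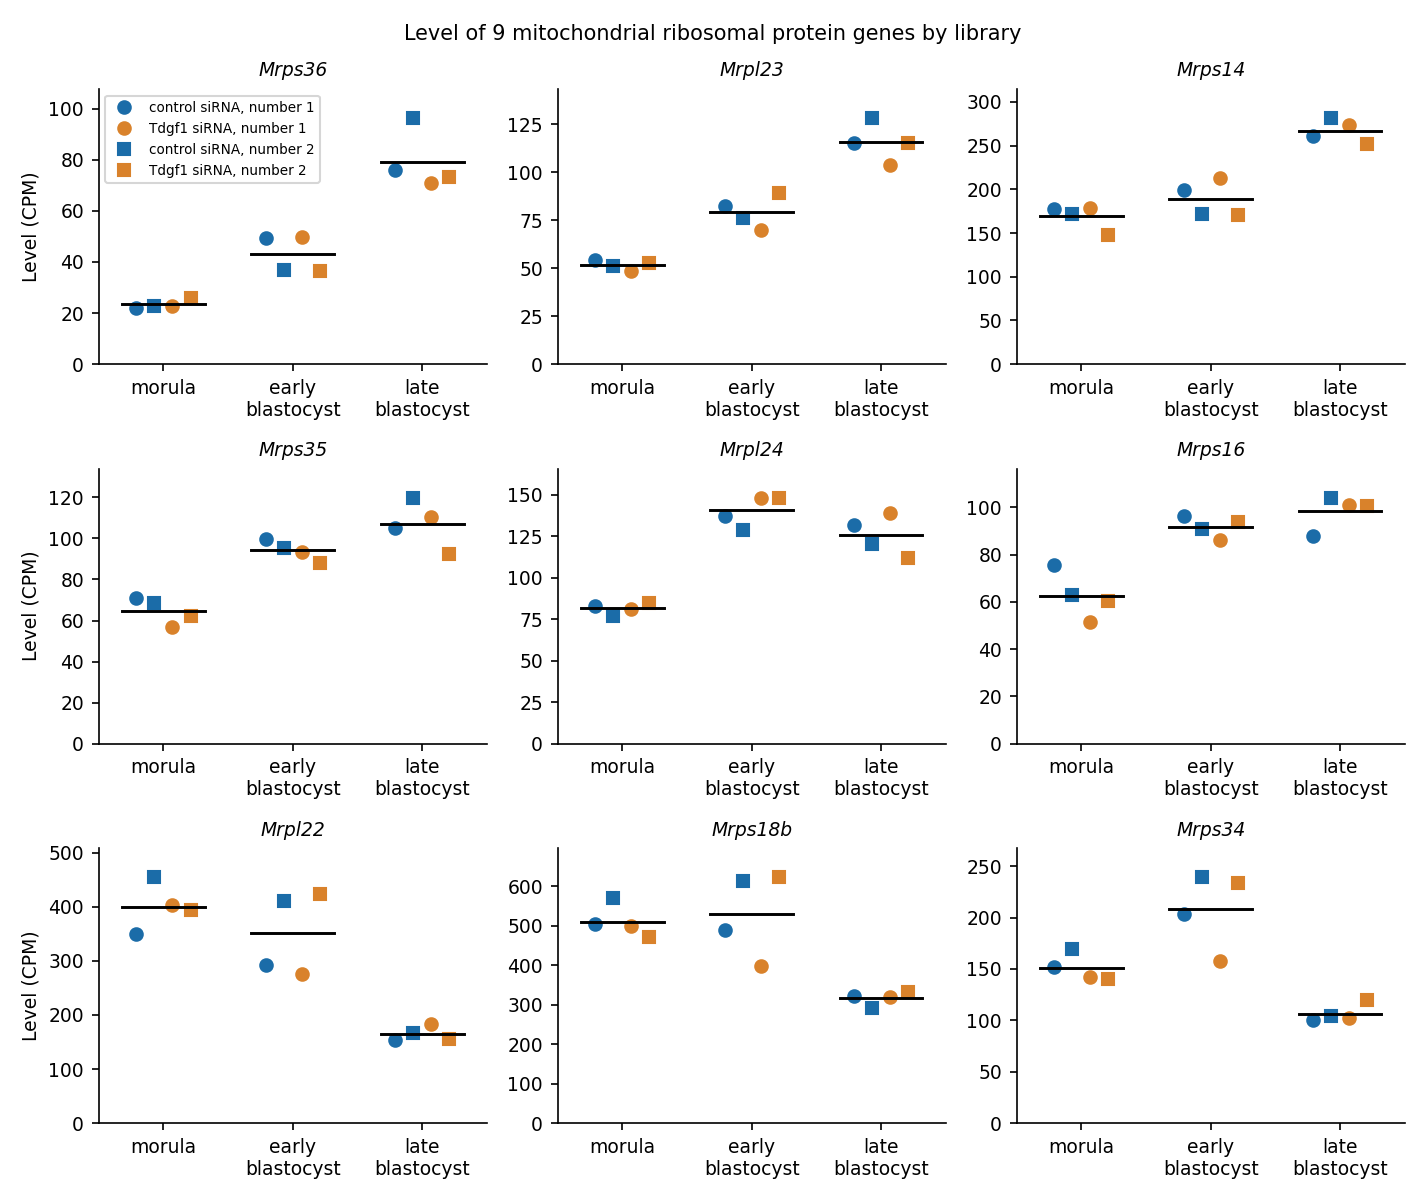
Level in CPM (vertical axes, each from 0) of 9 genes in the 12 libraries, by stage. Symbols mark siRNA and library number, and lines mark the mean of 4 libraries. Mrps36 and Mrpl23 step up at both transitions, and late blastocyst libraries of Mrpl22, Mrps18b and Mrps34 stand below all earlier ones.

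Promoter sequences (RefSeq, GRCm38.p6) were matched for 68 of the 77 genes by symbol and searched on both strands, from 250 bases before to 50 bases after the annotated start, for motifs of factors known to act on nuclear genes of mitochondrial proteins. The motif CCGGAAG of ETS factors such as GABP was present in 25 of the 68 genes (36.8%), against 9.93% of 27025 genes in the promoter table and 22.9% of those tested here. The NRF1 motif GCGCANGCG, with 1 free base, was present in 16 (23.5%), against 7.03% and 17.1%, and its form GCGCATGCG, a subset of those matches, in 7 (10.3%), against 1.95% and 4.76%. The YY1 motif AANATGGC was present in 20 (29.4%), against 6.96% and 11.4%. Its longer form AAGATGGCG, also a subset, was present in 8 (11.8%), against 1.64% and 4.25%. TATAAA was present in 5 (7.35%), against 15.7% and 7.79%. These shares were not particular to the family. The ETS motif was in 41.7% of 60 cytosolic ribosomal protein genes and in 26.2% of 61 nuclear genes for respiratory chain subunits. For the NRF1 motif with 1 free base the shares were 15.0% and 32.8%, and for AANATGGC 18.3% and 26.2%. Of the genes called lower at late blastocyst than at morula, 10 had a promoter in the table, of which 5 held the ETS motif and 5 the NRF1 motif with 1 free base. Of 18 called higher, 4 held the ETS motif and 3 the NRF1 motif, and of 39 not called, 15 and 8. The YY1 motif with 1 free base was in 3 of the 10, 6 of the 18 and 11 of the 39. The counts are small and a match is a description, not a binding site.

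The 150 bases before the annotated start are shown for the gene with the largest fall, for a falling Mrps18 paralog and for the gene with the largest rise, 5′ to 3′ on the gene's strand, with matches to the motifs above in capitals. They come from chr11:58171514-58171663 (plus strand) for Mrpl22, chr17:46110854-46111003 (plus strand) for Mrps18a and chr13:100744660-100744809 (minus strand) for Mrps36.
Mrpl22: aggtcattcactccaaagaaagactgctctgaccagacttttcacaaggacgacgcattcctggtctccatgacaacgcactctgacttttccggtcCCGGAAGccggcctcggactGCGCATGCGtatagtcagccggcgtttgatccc
Mrps18a: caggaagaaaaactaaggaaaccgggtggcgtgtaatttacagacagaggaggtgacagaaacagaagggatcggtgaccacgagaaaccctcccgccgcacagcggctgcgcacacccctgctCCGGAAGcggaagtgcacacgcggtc
Mrps36: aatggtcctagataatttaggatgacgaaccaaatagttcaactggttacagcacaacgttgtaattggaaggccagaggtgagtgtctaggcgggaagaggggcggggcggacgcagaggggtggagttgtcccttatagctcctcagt
In Mrpl22 the ETS motif CCGGAAG and the NRF1 motif GCGCATGCG began 53 and 33 bases before the start. In Mrps18a the ETS motif began 26 bases before the start. The Mrps36 window held none of these letters, which says nothing about the factors themselves.

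The first step, from morula to early blastocyst, went mostly upward. By limma, 23 of the 76 genes (30.3%) were higher at early blastocyst, beside 19.7% of all genes tested, and 0 were lower, beside 14.0% of all genes. Without overlap between the 4 libraries of each stage, 23 genes were higher and 3 lower, beside 19.7% and 14.1% of all genes. The median change was 0.19, against 0.05 over all genes, and the difference between these medians was 0.14 to 0.16 in the deposited values and under quantile normalization, edgeR and DESeq2. That difference was 0.01 without all libraries numbered 2 and 0.23 without those numbered 1, so it rested on the libraries numbered 2. With same-numbered libraries averaged, which treats them as 1 sample, 13 of the 23 calls remained, and 12.1% of all genes were called higher. Up to 5 genes were called lower when libraries were left out. The 5 came without all libraries numbered 2, beside 14.6% of all genes. Without early blastocyst control library 2 alone there were 3, and without early blastocyst Tdgf1 siRNA library 2 alone 2. The shares of all genes in those 2 fits are not given here.

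After Mrps36, which rose by 0.78 ± 0.15 at this step (adjusted p = 0.00138), the largest rise was that of Mrpl24. Mrpl24, whose product lies near the tunnel exit, had 83.1, 77.2, 81.0 and 84.9 CPM at morula and 137, 129, 148 and 148 CPM at early blastocyst. All early blastocyst libraries were above all morula libraries, and the change was 0.76 ± 0.11 (adjusted p = 0.000208). On the opposite strand, Rrnad1 overlaps 38.2% of its exon bases. Mrps11, a gene of the small subunit's platform, went from 51.1 ± 3.8 to 84.6 ± 11.9 CPM (0.68 ± 0.12, adjusted p = 0.00108). Mrpl2, whose product lies close to the catalytic centre of the large subunit, went from 114 ± 7.23 to 177 ± 15.0 CPM (0.61 ± 0.10, adjusted p = 0.000674). Both groups of libraries were apart in these genes as well. Mrpl23 and Mrps5, a small-subunit gene of bacterial ancestry, each rose by 0.58, with standard errors of 0.12 and 0.11 (adjusted p = 0.00199 and 0.00194).

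The second step, from early to late blastocyst, held few rises in this family, while its share of falls was near that of all genes. By limma, 4 of the 76 genes (5.26%) were higher at late blastocyst, beside 27.0% of all genes tested, and 15 (19.7%) were lower, beside 17.7%, with 57 not called. Without overlap between libraries, 7 genes were higher and 19 lower, beside 25.7% and 17.9% of all genes. The median change was -0.1 in the family and 0.09 over all genes. The family's median was lower than that of all genes by every scaling tried, with a difference of -0.2 in the deposited values, -0.07 after quantile normalization and -0.22 by edgeR and by DESeq2. It was -0.08 without all libraries numbered 2 and -0.27 without those numbered 1. Among the Mrps genes 9 of 29 fell and 3 rose, and among the Mrpl genes 6 of 47 fell and 1 rose.

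The 4 genes that rose at this step were Mrps36 (0.83 ± 0.15, adjusted p = 0.000566), Mrpl23 (0.52 ± 0.12, adjusted p = 0.00275), Mrps14 (0.50 ± 0.11, adjusted p = 0.00271) and Mrps28 (0.37 ± 0.11, adjusted p = 0.0155). Mrps14 was not called at the first step: its morula and early blastocyst means were 169 ± 14.5 and 189 ± 20.3 CPM, a difference of 0.16 ± 0.11 (adjusted p = 0.297). Mrps28, a small-subunit gene, had 88.6, 77.9, 66.3 and 75.0 CPM at early blastocyst and 104, 101, 93.7 and 102 CPM at late blastocyst, without overlap. Its call was lost with same-numbered libraries averaged (adjusted p = 0.0677) and by edgeR and DESeq2.

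The largest falls at this step were those of Mrpl22 (-1.05 ± 0.15, adjusted p = 0.000123) and Mrps34 (-0.93 ± 0.13, adjusted p = 8.77e-05). Mrps34 had 203, 239, 158 and 234 CPM at early blastocyst and 100.1, 104, 102 and 119.6 CPM at late blastocyst. Every late blastocyst library was below every early one. Mrps18b fell by 0.72 (SE 0.13, adjusted p = 0.000872). Mrps31, Mrps22 and Mrpl39, which encode mitochondria-specific proteins of the small, small and large subunit, fell by 0.68, 0.61 and 0.54 (SE 0.14, 0.13 and 0.12, with adjusted p of 0.0021, 0.00196 and 0.00334). The libraries of both stages were apart in these genes too.

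A rise at the first step and a fall at the second were both called in 6 genes: Mrpl19, Mrpl44, Mrps5, Mrps22, Mrps23 and Mrps34. They were 7.89% of the family, beside 2.61% of all genes tested. Mrps22 stood at 99.5, 71.9, 87.9 and 77.3 CPM at morula, 108, 118, 102 and 118 CPM at early blastocyst and 76.0, 81.3, 72.3 and 59.7 CPM at late blastocyst. Its early blastocyst libraries were the 4 highest, and its morula and late blastocyst libraries overlapped. Mrps5 stood at 65.3 ± 6.31, 99.3 ± 10.2 and 77.7 ± 2.87 CPM, and Mrps23 at 79.0 ± 8.58, 102 ± 6.45 and 76.9 ± 8.6 CPM (SD, n = 4). With same-numbered libraries averaged, both calls held for 1 of the 6, Mrpl44, a large-subunit gene named here after its values were seen. By edgeR, DESeq2 and after quantile normalization both calls held for 5 of the 6, and that of Mrps22 at the first step was lost. Over all 24 alternatives, the fall of Mrps5 was lost in 10 and that of Mrpl19 in 9. The rises of Mrpl19, Mrps34 and Mrps22 were lost in 7, 8 and 12. The rise of Mrps5 and the fall of Mrps22 were each lost in 1, and the fall of Mrps34 in 0. The share of 2.61% was counted for the main fit only. In all, 45 of the 76 genes (59.2%) were called in at least 1 of the 3 stage comparisons and 31 in none, beside 71.5% of all genes called in at least 1.

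By stage means in CPM, 41 of the 76 genes (53.9%) were highest at early blastocyst, 23 (30.3%) at late blastocyst and 12 (15.8%) at morula. Over all 10751 genes tested, the shares were 20.3%, 47.1% and 32.6%. The early blastocyst was thus the commonest peak in the family and the rarest among all genes. In the libraries numbered 1 alone it was the peak of 40.8% of the family and 24.6% of all genes, and in those numbered 2 of 55.3% and 19.4%.

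**Figure D3:**
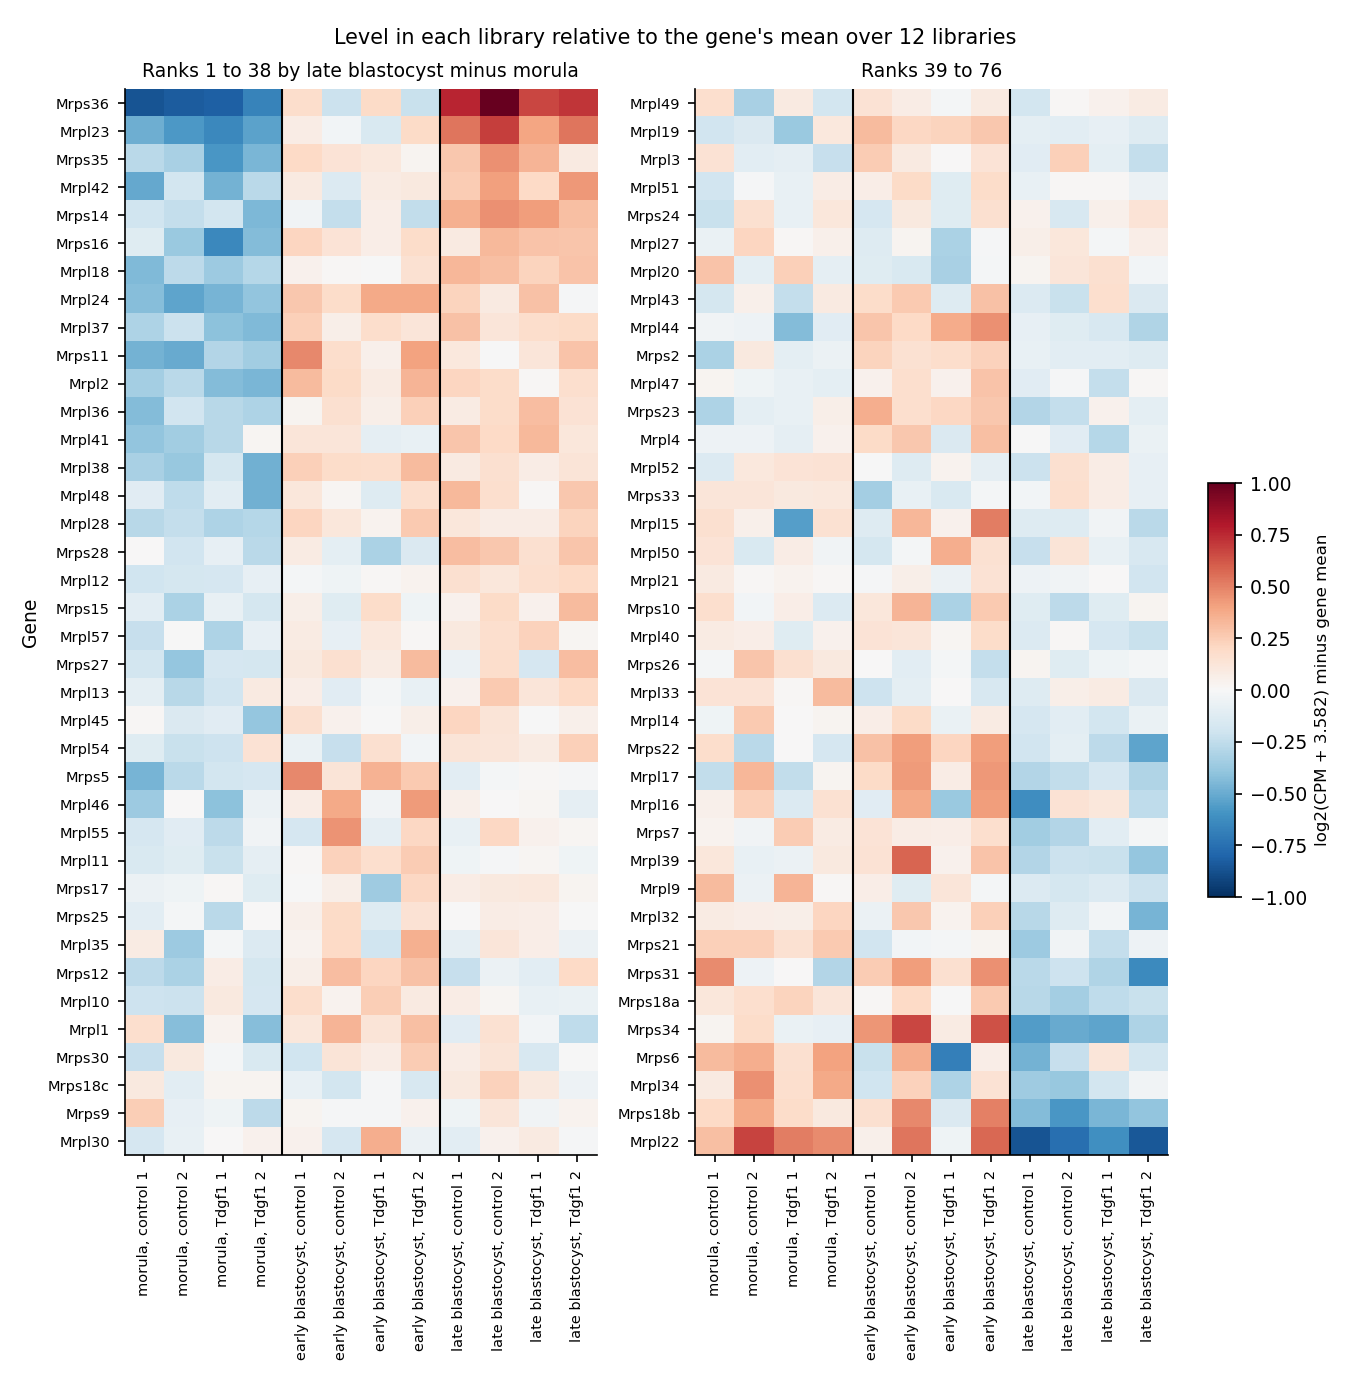
Level of the 76 tested genes (rows, ordered by the change from morula to late blastocyst) in the 12 libraries (columns), as log2(CPM + 3.582) minus the gene's mean, in colour from -1 to 1, where values beyond take the end colour. Mrps36 and Mrpl23 lead the rises, Mrpl22 ends the falls, and many middle rows are reddest at early blastocyst.

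Part of that peak differed between the libraries numbered 1 and 2. At early blastocyst the family summed to 11095 and 10589.8 CPM in the control and Tdgf1 siRNA libraries numbered 1, and to 11696 and 12127 CPM in those numbered 2. In 34 of the 76 genes both libraries numbered 2 stood above both numbered 1, and in 13 below, while the shares over all genes tested were 19.2% and 41.8%. Of the 15 genes that fell from early to late blastocyst, 9 had the libraries numbered 2 on top and 1 had them below. Those genes were picked for a high early blastocyst mean, which includes the libraries numbered 2, so the count carries that selection. Mrpl22 (293 and 275 against 411 and 423 CPM) and Mrps18b (490.1 and 397 against 614 and 622 CPM) were among those with the libraries numbered 2 on top. The summed level of 8 trophectoderm markers (the outer layer of the blastocyst) moved with this split, at 3708 and 3433 CPM in the libraries numbered 1 and 1662 and 1767 CPM in those numbered 2. It was 542 to 777 CPM at morula and 5343 to 7631 CPM at late blastocyst, so by this sum the libraries numbered 2 lay nearer to morula. Krt8 and Krt18 made up most of the sum. Tfap2c, another of the 8, fell over the stages, from a mean of 153 CPM at morula to 101 CPM at late blastocyst. The part of this split in the results was not tested. Without all libraries numbered 2, 21 genes were higher and 5 lower at early blastocyst than at morula, beside 25.5% and 14.6% of all genes. From early to late blastocyst 3 then rose and 11 fell, beside 19.9% and 15.4%. Without those numbered 1 the first counts were 30 and 2, beside 16.1% and 15.6% of all genes. The second were 7 and 23, beside 31.5% and 18.8%.

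Markers of the other cell types were measured beside the family. Over the 7 epiblast markers, the pluripotent lineage, the sum was 702 to 964 CPM at morula, 782 to 933 CPM at early blastocyst and 261 to 341 CPM at late blastocyst. Nanog and Pou5f1, the most abundant, fell from morula to late blastocyst, as did Klf4 and Esrrb. Sox2 (means of 2.2 and 10.9 CPM), Prdm14 and Fgf4 rose over that span. Over the 6 primitive endoderm markers the sum was 748 to 779, 698 to 911 and 974 to 1112 CPM. Of these, Gata6 fell from a mean of 415 CPM at morula to 230 CPM at late blastocyst, while the others rose. None of these markers was at 0 in all libraries, while 8 markers of cumulus and granulosa cells together reached at most 2.11 CPM and 7 of blood cells at most 7.25 CPM. The changes in lineage markers accompany every stage comparison above, and their part in the family's changes was not tested.

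The family's course lay between those of 2 related groups of nuclear genes. Of 79 tested cytosolic ribosomal protein genes, 1 rose and 60 fell from morula to late blastocyst, with a median of -0.53. Of 76 nuclear genes for respiratory chain subunits, 71 rose and 0 fell, with a median of 0.91. The family's median was 0.05, with 22 genes higher and 11 lower. Rpl41, a cytosolic ribosomal gene, fell by 1.61 (SE 0.11, adjusted p = 8.94e-08), and Ndufs4, of respiratory complex I, rose by 2.16 ± 0.21 (adjusted p = 1.27e-06). The signs of both other medians were the same after quantile normalization and by edgeR and DESeq2. Of the respiratory genes 97.4% were highest at late blastocyst, of the cytosolic ribosomal genes 75.9% were highest at morula, and of the mitochondrial ribosomal genes 53.9% were highest at early blastocyst. No test of the difference between lists was made.

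**Figure D4:**
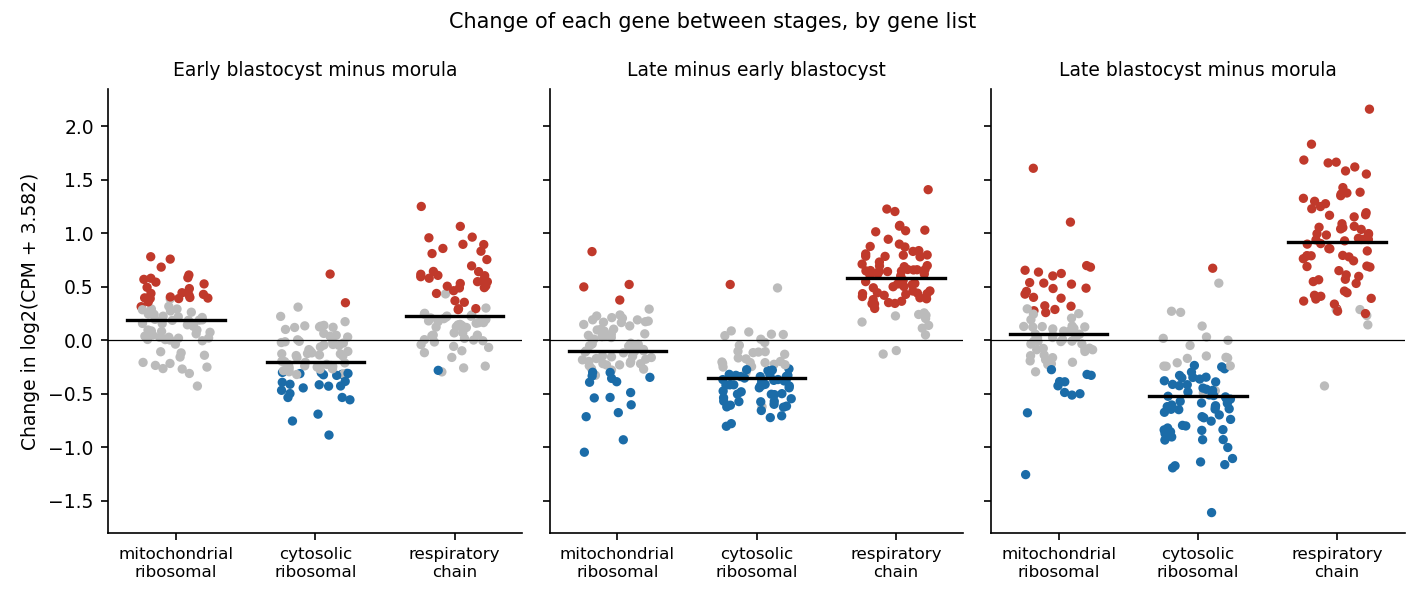
Change of each gene in log2(CPM + 3.582) (vertical axis) in 3 stage comparisons, for 76 mitochondrial ribosomal, 79 cytosolic ribosomal and 76 respiratory chain genes. Red points were called higher, blue points lower and grey points neither (limma, adjusted p under 0.05), and lines mark medians, which from morula to late blastocyst are 0.05, -0.53 and 0.91. Sideways scatter only separates the points.

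Genes that act with the mitochondrial ribosome are given next, as lists of the pathway. Subunits whose names fall outside the Mrpl and Mrps pattern numbered 6, of which 2 rose and 1 fell from morula to late blastocyst. Dap3, a GTP-binding subunit, rose by 0.77 ± 0.11 (adjusted p = 4.69e-05), all of it by early blastocyst, with means of 82.2 ± 8.31, 143 ± 9.54 and 143 ± 14.7 CPM (SD, n = 4). Chchd1 rose by 0.74 ± 0.10 (adjusted p = 3.22e-05), and Gadd45gip1 fell by 0.54 (SE 0.14, adjusted p = 0.00479). Of 25 tested genes for assembly of the mitochondrial ribosome and modification of its RNA, 7 rose (28.0%) and 5 fell, with a median of 0.14. Of all genes tested 36.6% rose and 24.3% fell over this span, with a median of 0.13, so the list was near the background. Mpv17l2, an assembly factor, rose by 1.01 ± 0.11 (adjusted p = 4.73e-06).

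Of 15 mitochondrial translation factor genes, 9 rose (60.0%) and 0 fell over the same span, with a median of 0.41, against the same shares and median of all genes. Mtif3, an initiation factor, went from 95.1 ± 4.43 to 184 ± 20.4 CPM (0.92 ± 0.11, adjusted p = 5.88e-06), and Oxa1l, which inserts mitochondrial translation products into the inner membrane, from 37.9 ± 4.31 to 76.9 ± 5.06 CPM (0.96 ± 0.13, adjusted p = 2.31e-05). Of 17 mitochondrial aminoacyl-tRNA synthetase genes, 9 rose (52.9%) and 2 fell (11.8%). Lars2 rose by 2.23 ± 0.29 (limma adjusted p = 1.6e-05), from 534 ± 204 to 2529.6 ± 1032 CPM, with a wide spread among libraries. Fars2 rose by 1.37 ± 0.16 (adjusted p = 7.67e-06), from 8.18 ± 1.64 to 27.1 ± 6.4 CPM. Wars2, the enzyme for tryptophan, fell by 1.27 (SE 0.16, adjusted p = 1.09e-05), already at early blastocyst (8.59 ± 1.99 CPM, from 27.9 ± 0.973 CPM at morula). Of 12 genes for mitochondrial DNA replication and transcription, 2 rose (16.7%) and 3 fell, among the latter Polrmt, the mitochondrial RNA polymerase, which fell by 0.88 (SE 0.17, adjusted p = 0.000524). Of 8 tested regulators of mitochondrial biogenesis, 2 rose and 3 fell (37.5%). Gabpa, the DNA-binding subunit of GABP, fell by 0.23 (SE 0.09, adjusted p = 0.0402), Yy1 fell by 0.92 (SE 0.14, adjusted p = 7.84e-05), and Nrf1 differed by -0.25 ± 0.12 (adjusted p = 0.0879). Pprc1 fell by 0.98 (SE 0.10, limma adjusted p = 2.88e-06). The 2 that rose were Ppargc1b (1.08 ± 0.24, adjusted p = 0.00147) and Myc (0.74 ± 0.22, adjusted p = 0.00939). All 37 genes named as mitochondrially encoded were listed at 0 in every library, so the ribosome's own RNAs and its products were not measured here.

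The libraries labelled Tdgf1 siRNA were compared with their controls at each stage. Tdgf1 itself had 29.4 and 23.4 CPM in the control libraries at morula, where the higher of the Tdgf1 siRNA libraries had 15.5 CPM (difference -0.84 ± 0.27). At late blastocyst it had 97.3 and 84.6 CPM in controls and 49.5 and 70.8 CPM in the Tdgf1 siRNA libraries. At early blastocyst it had 21.7 and 13.1 CPM in controls and 9.27 and 15.2 CPM in the libraries labelled Tdgf1 siRNA, so the groups overlapped there. The mean difference over the 3 stages was -0.61 ± 0.16 (limma adjusted p = 1.0).

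No mitochondrial ribosomal protein gene was called different between the arms by these tests. By limma, 0 of 76 were called at any single stage, in the mean of the 3 stages or in the interaction of siRNA and stage. Of all genes tested, 0.0% were called in each. In the same tests 0 of 76 had an unadjusted p under 0.05, beside 97 to 268 of all 10751 genes. EdgeR and DESeq2 also called 0 of the 76 in each comparison, with 0 at an unadjusted p under 0.05. Over all 10751 genes, 137 to 304 had such a p by edgeR and 155 to 327 by DESeq2. Such a p was rare among all genes as well, and whether the family differed from them was not tested. With same-numbered libraries as pairs, a block that raised the count of all genes called to 5, 5 and 3 at the 3 stages, 0 of the 76 were called, and 1, 2 and 2 had an unadjusted p under 0.05. Of all 10751 genes tested, 663, 491 and 697 did. The median difference of the family was -0.01, -0.01 and -0.02 at the 3 stages. In the limma fit without pairs, 95% intervals of single genes were taken without adjustment. Their median half-width was 0.35 at a stage and 0.2 in the mean of the stages. A difference smaller than a gene's own half-width could thus not be told from 0 in that fit. Intervals with the pairs were not computed. A call also needed adjustment over all genes tested, so larger differences could go uncalled too. Tdgf1, the siRNA target, was itself not called by limma, at -0.84 ± 0.27 at morula and -0.61 ± 0.16 in the mean of the stages. The absence of calls in the family therefore does not exclude differences wider than these half-widths. In the mean of the stages, the bounds of all 76 intervals lay between -0.46 and 0.37.

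The smallest p-values were described without a call. At morula, Mrps16 had 75.6 and 62.9 CPM in controls and 51.3 and 60.2 CPM in the Tdgf1 siRNA libraries, a difference of -0.29 ± 0.16 (limma adjusted p = 1.0). At early blastocyst, Mrpl50 had 61.4 and 68.7 against 90.7 and 78.1 CPM, a difference of 0.36 ± 0.18 (adjusted p = 1.0). At late blastocyst, Mrps7 had 205 and 213 against 243 and 259 CPM, a difference of 0.26 ± 0.13 (adjusted p = 1.0). The arms did not overlap in these 3 genes at these stages, but with 2 libraries each that is a weak separation. Mrps7, which encodes a protein of the small subunit's head, also had the smallest p in the mean of the stages, at 0.15 ± 0.08.

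The stage changes were set side by side in the arms, which share no libraries. The arms are not independent, since same-numbered libraries deviated together (r of 0.458, 0.593 and 0.101 at the 3 stages). Over the 76 genes the change from morula to late blastocyst in control libraries and that in Tdgf1 siRNA libraries had a Pearson r of 0.95, as a description across genes, which are not independent. It was 0.84 for each single step. The signs were the same in 65 of the 76 genes over the whole span, in 66 at the first step and in 67 at the second. Mrps36 changed by 1.78 in the control arm and 1.44 in the Tdgf1 siRNA arm, and Mrpl22 by -1.3 and -1.22. The widest gap between arms over the whole span was that of Mrps6, at -0.69 and -0.31. With 6 libraries, each arm alone gave fewer calls over the whole span, 19 in controls and 15 in the Tdgf1 siRNA arm, with 13 shared. The shares of all genes called in an arm or in both are not given here. These counts therefore do not set the family apart from all genes.

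**Figure D5:**
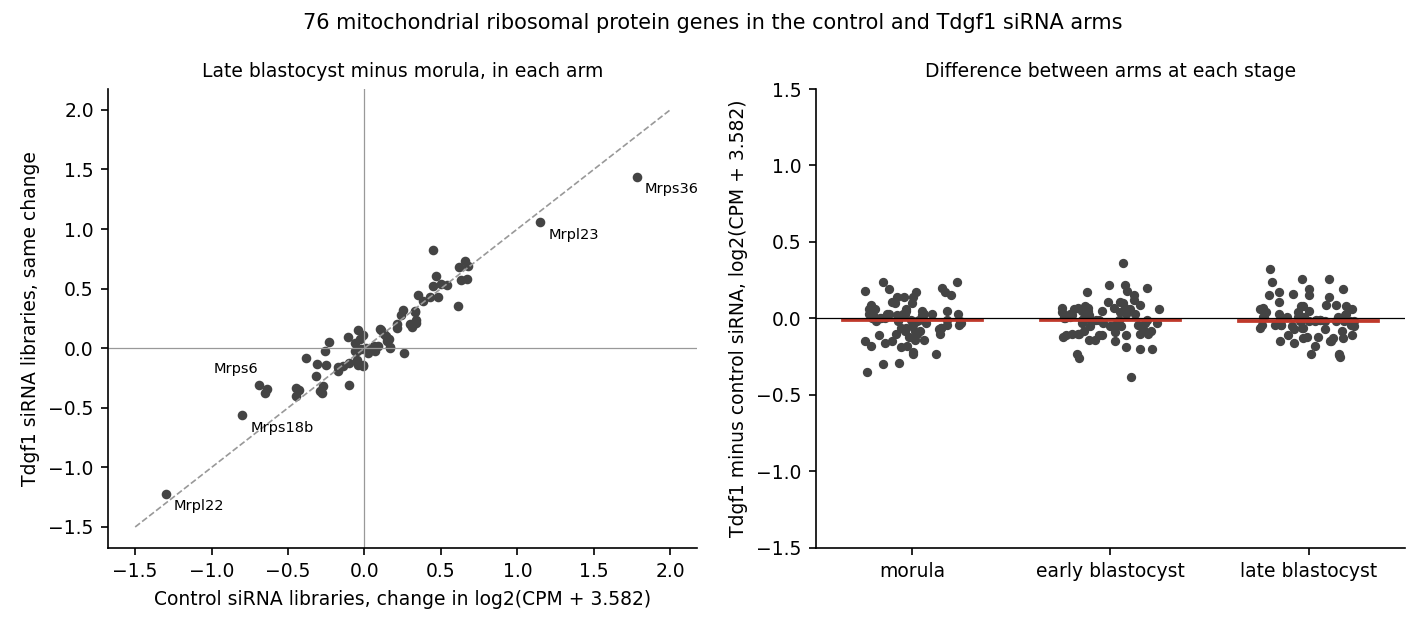
Left, change of each of the 76 genes from morula to late blastocyst in log2(CPM + 3.582) in the control libraries (horizontal axis) and the Tdgf1 siRNA libraries (vertical axis), with the line of equal change dashed. Right, difference between the arms at each stage on the same scale, with medians of -0.01, -0.01 and -0.02 as lines. The points on the left follow the dashed line, and those on the right lie close to 0.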

How the data were processed

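Per the labels' protocols, cDNA from mouse embryos was made with a SMARTer low-input kit and libraries with a NEBNext Ultra DNA kit. HISAT2 2.1.0, Cufflinks, HTSeq, edgeR and the build mm10 are named in the submitters' processing notes, without roles. The authors' deposited table of 43472 genes is headed RPKM but every value was a whole multiple (tolerance 0.01 reads) of the same step in its column, whatever the gene's length. The deposited values are thus CPM divided by 3.582, and levels are given as CPM after multiplying back. Recovered totals were 10524640 to 13770264 reads, so a listed 0 allows up to 3 reads, or 0.218 to 0.285 CPM (counting error only). The planned tests had assumed values divided by length and were kept.

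Under R 4.3.3, limma 3.58.1 (lmFit, then eBayes with a trend) tested differences on log2(CPM + 3.582), which understates changes of low genes, over 10751 genes with a mean of at least 3.582 CPM. All 12 libraries entered 1 fit with 6 group means, and stage comparisons average both arms. Benjamini-Hochberg adjustment ran within each comparison (threshold 0.05). Of the tests, only limma for late blastocyst minus morula was tried on simulated data, whose libraries were drawn independently. Alternatives were edgeR 4.0.16 and DESeq2 1.42.0 on whole reads, quantile normalization, other filters and pseudocounts, single arms, left-out libraries and the replicate number as a block. Libraries of both arms with the same number deviated together from their group means, with correlations of 0.458, 0.593 and 0.101 at morula, early and late blastocyst, so the numbers were taken as pairs within a stage, from the data alone. No 2 libraries agreed within sampling noise (chi-square per gene 17.0 to 41.1). Exon lengths and positions came from GENCODE M21 (GRCm38) and promoters from RefSeq. The family and the gene lists were chosen with earlier results of these data known. Named genes were, among the family, the 6 largest rises and falls past the threshold in each stage comparison, the 5 highest and lowest levels per kilobase, the 3 smallest p-values in each siRNA comparison, the Mrps18 and stalk genes, and the 3 largest changes past the threshold in each other list. The regulators Gabpa, Nrf1 and Myc were named beyond that rule. Tables and plots used Python 3.11.15, pandas 2.3.3, numpy 2.4.6 and matplotlib 3.10.9.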

Additional observations from a re-analysis of the deposited data

How the results depend on the processing

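No named gene changed direction where it was called, but the balance of the counts from morula to late blastocyst turned by edgeR and DESeq2. Of 47 pairs of a named gene and a stage comparison, 17 kept their side of the threshold under every alternative, and 32 when the arms taken alone, with fewer libraries, are left aside. The 12 siRNA pairs were never called. The main limits are 2 libraries in a group, unknown embryo numbers, and a scale that sets the sum of all genes equal between stages.

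From morula to early blastocyst, 23 genes were higher and 0 lower. The count of higher genes was 7 in control libraries alone, 6 in Tdgf1 siRNA libraries alone and 17 to 30 with libraries left out. It was 13 with same-numbered libraries averaged, where 12.1% of all genes were higher. The count of lower genes was 2 with the replicate number as a block and 2 by DESeq2, beside 15.2% and 17.7% of all genes. It was 0 to 5 with libraries left out. From early to late blastocyst, 4 were higher and 15 lower. The count of higher genes was 7 after quantile normalization and 6 with the replicate block, beside 21.2% and 28.3% of all genes. It was 1 in Tdgf1 siRNA libraries alone and 3 to 7 with libraries left out. The count of lower genes was 7 in controls alone, 5 in Tdgf1 siRNA libraries alone and 10 to 23 with libraries left out. It was 9 with libraries averaged, where 12.2% of all genes were lower. From morula to late blastocyst, 22 were higher and 11 lower. The count of higher genes was 13 in each arm alone and 17 to 24 with libraries left out. It was 14 by edgeR and 14 by DESeq2, beside 30.9% and 31.0% of all genes. The count of lower genes was 7 with no filter on low values, 6 in controls alone, 2 in Tdgf1 siRNA libraries alone and 5 to 12 with libraries left out. It was 6 with libraries averaged, 17 by edgeR and 18 by DESeq2, beside 20.3%, 29.6% and 30.7% of all genes. Over all genes the shares called moved with the setting too. Where no share of all genes is given here or above, a count does not set the family apart from all genes. An arm alone has fewer libraries. The cause of the other differences was not tested. In the siRNA comparisons the count was 0 under every alternative run, the replicate block and the pairing it assumes included.

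The ratio of summed levels between late and early blastocyst was 0.919, and 0.897 over the 50 genes without an overlapping gene or named pseudogene. Between late blastocyst and morula it was 1.03, and 1.01 per kilobase of exon.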
